A study of Mus musculus with 12 samples.

Results

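Mouse HSC cultures that had been exposed to riociguat for 12 h were compared with cultures exposed for 6 h, over every gene of the deposited count table that passed a filter on low counts. The table held 53452 genes, of which 16036 passed the filter, and 6 of the 12 libraries of the series were compared. The filter, the scaling and the fit behind the p-values drew on all 12. The labels write HSC without spelling it out; the cells came from the livers of wild-type mice, and the term was taken to mean hepatic stellate cells. The groups compared were riociguat 6 h and riociguat 12 h, with 3 libraries each; DMSO 12 h (the solvent alone) and riociguat 24 h, also with 3 libraries each, are given for reference. All groups were wild type and shared one schedule apart from the addition: 12 h of culture after isolation, a change of medium, and collection of RNA 24 h after that change. Riociguat was added 18 h after the change of medium in the 6 h group, 12 h after it in the 12 h group and with it, at 0 h, in the 24 h group, and DMSO was added 12 h after it. A longer exposure and an addition at an earlier stage of culture therefore cannot be told apart, and no DMSO library had the 6 h schedule. The dose, the age and sex of the mice and whether the replicates came from separate animals or cultures do not appear in the labels. The p-values measure the spread between these libraries, which may be technical.

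Hepatic stellate cells are the vitamin A-storing pericytes of the liver sinusoid, and plating them on plastic drives them towards contractile, collagen-producing myofibroblasts. Riociguat is a drug that stimulates soluble guanylate cyclase, the enzyme that makes cyclic GMP in response to nitric oxide. Cyclic GMP activates protein kinase G, which relaxes the actomyosin of smooth muscle, and is broken down by phosphodiesterases. Actin tension in turn feeds the transcription factors SRF and YAP/TAZ-TEAD, whose targets include contractile proteins and the secreted CCN proteins.

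The 6 libraries held between 12953096 and 27358893 counts, with the lowest total in riociguat 6 h replicate 1, and mitochondrial transcripts took 3.21% to 4.75% of them. Levels are given as CPM, a gene's count as a share of the library total, scaled by TMM factors, which set the libraries to a common composition. Of 14 stellate cell markers all 14 passed the filter, with Reln, Dcn, Ecm1 and Pdgfrb well above it, whereas Lrat, the retinol-esterifying enzyme of quiescent stellate cells, was at 4.58 CPM at 6 h and 6.12 CPM at 12 h. Markers of other liver cells were also present. Over 12 endothelial markers the summed level was 2064 ± 46.2 CPM at 6 h and 1826 ± 69.4 CPM at 12 h, without overlap, and over 8 cholangiocyte markers it was 1061 to 1200 and 1279 to 1455 CPM. Hepatocyte markers (10 genes) summed to 1065 to 1236 and 1207 to 1498 CPM and macrophage markers (12 genes) to 123 to 131 and 143 to 163 CPM. Lymphocyte markers (8 listed) summed to 1.93 to 3.11 and 3.24 to 4.61 CPM. Of these 8, 4 passed the filter, while Cd3e, Cd3g, Nkg7 and Trbc2 did not. The sums were taken before the filter, so they are not limited to the markers that passed it. Portal fibroblast and mesothelial markers (10 genes) summed to 360 to 364.6 CPM at 6 h and 379.3 to 387.8 CPM at 12 h. The cholangiocyte list includes Spp1, also a stellate cell product, at a mean of 275 CPM at 6 h and 386 CPM at 12 h. The endothelial, cholangiocyte, macrophage, lymphocyte and portal sums did not overlap between the groups, and the hepatocyte sums did. The part of any of them in the differences below was not tested. In bulk RNA a lower level can come from fewer cells of a type or from less RNA per cell, and these cannot be told apart. Riociguat 12 h replicate 3 stood apart for interferon-induced genes, so results on these are given with and without it.

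Between 6 h and 12 h of riociguat 976 of 16036 genes changed at an adjusted p under 0.05 by edgeR's quasi-likelihood test with Benjamini-Hochberg adjustment, which is 6.09% of those tested. Of these, 412 were higher at 12 h (2.57%) and 564 were lower (3.52%), 958 were protein coding, and in 974 the libraries of the 6 h and 12 h groups did not overlap. That separation alone, with no test, was found for 11.5% of tested genes in the upward direction and 12.5% in the downward direction. These shares, called and separated, are the background for the gene lists below. The changes were mostly small: the median absolute log2 fold change among changed genes was 0.35, where 1 is a doubling, and 45 genes (22 higher, 23 lower) reached 1. With library totals in place of TMM factors the split was 529 higher and 454 lower, and the share higher moved from 42.2% to 53.8%. Same-numbered libraries of both groups deviated together weakly, with correlations of 0.14 to 0.236. Over all groups such correlations ran from -0.331 to 0.27. A fit of the 6 libraries with the replicate number as a block, chosen after the data were seen, called 1802 genes (881 higher, 921 lower). The same block over all 12 libraries called 842 (356 higher, 486 lower). The call count was 600 without riociguat 6 h replicate 3 and 596 without riociguat 12 h replicate 2.

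Secreted proteins of the matrix were among the largest falls. Thbs1 encodes thrombospondin-1, a matrix protein that activates latent TGF-beta, and lies at chr2:118111876-118127133 (GRCm38). Its level was 2082, 1692 and 2116 CPM in the 6 h libraries and 691, 640.2 and 785 CPM in the 12 h libraries. The groups did not overlap, and the 12 h level of 705.5 ± 73.5 CPM was nearer to that at 24 h (769 ± 72.0) than to that in DMSO (2127 CPM). The log2 fold change was -1.48 ± 0.09 (SE; edgeR adjusted p = 8.31e-08). Ccn2, the connective tissue growth factor at chr10:24595442-24598683, was at 1315, 1066 and 1256 CPM at 6 h and at 457, 427 and 521.5 CPM at 12 h. All 6 h libraries again lay above all 12 h libraries, with a log2 fold change of -1.37 ± 0.09 (edgeR adjusted p = 1.65e-07), and the means in DMSO and at 24 h were 1270 and 467 CPM. For both genes the 6 h and DMSO means were the high ones and the 12 h and 24 h means the low ones.

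A list of 23 tested smooth muscle contractile genes held 15 that were lower at 12 h and none that was higher. The share called was 65.2%, against 6.09% of all tested genes. Its median log2 fold change was -0.37 against 0.00 over all tested genes. Acta2, the smooth muscle actin that marks the activated stellate cell, was at 227, 178 and 197 CPM at 6 h and at 122, 120.4 and 136 CPM at 12 h. The groups did not overlap (log2 fold change -0.67 ± 0.09, edgeR adjusted p = 0.000116), and the mean was 484 CPM in DMSO and 116 CPM at 24 h. Tagln (transgelin, an actin-bundling protein) went from 321 ± 19.2 to 187 ± 15.0 CPM and Cnn2 (calponin 2) from 309 ± 20.3 to 188 ± 9.79 CPM, n = 3 each. Csrp1, a LIM-domain partner of SRF, fell by 0.70 ± 0.06 and Vcl, the focal adhesion protein vinculin, by 0.63 ± 0.05 on the log2 scale. Myl9 (myosin light chain), Myh11 (smooth muscle myosin heavy chain) and Srf itself were among the other members that fell, at -0.70, -0.50 and -0.37. The smallest called changes were those of Actn1 (-0.18), Pdlim7 (-0.21) and Cald1 (-0.22), so the fall was steep for some members and shallow for others. Summed over the list, the level was 10080 to 10570 CPM at 6 h and 8114 to 8501 CPM at 12 h. Nes, the intermediate filament nestin, is on none of the lists and had the smallest p of all genes: 895, 844 and 903 CPM at 6 h against 453, 430.1 and 458 CPM at 12 h (log2 fold change -0.98 ± 0.05, edgeR adjusted p = 9.04e-09).

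Among 22 tested targets of the coactivators YAP and TAZ, 11 were lower and 2 (Gadd45b and Rbms3) higher at 12 h, with a median log2 fold change of -0.20. The share called was 59.1%, against 6.09% of all tested genes. Ankrd1, a muscle ankyrin-repeat protein widely used as a YAP readout, had 752, 722 and 742 CPM at 6 h and 397.5, 372 and 435 CPM at 12 h. No library overlapped between the groups, and the mean was 979.7 CPM in DMSO. Ccn1, the second CCN protein of the list, fell by 0.67 ± 0.06 on the log2 scale, from 781 ± 53.6 to 491 ± 25.3 CPM. Falls were smaller for Crim1 (-0.56), Tead1, the DNA-binding partner of YAP (-0.41), and Lats2 and Amotl2, inhibitors of YAP (-0.26 and -0.27). Without riociguat 6 h replicate 3, 1 member was higher in place of 2.

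Promoter windows of 3 fallen members of the contractile and YAP and TAZ lists are shown. Each runs from 250 bases before to 50 bases after a RefSeq start site on GRCm38.p6. Capitals mark matches to the motif named. The windows of Cnn2 (chr10:79988350-79988649, plus strand) and Vcl (chr14:20929148-20929447, plus strand) hold a CArG box, the SRF motif, starting 56 and 227 bases before the start site, and that of Ankrd1 (chr19:36119795-36120094, minus strand) holds 2 TEAD cores, GGAATG, at 210 and 123 bases before it.
Cnn2: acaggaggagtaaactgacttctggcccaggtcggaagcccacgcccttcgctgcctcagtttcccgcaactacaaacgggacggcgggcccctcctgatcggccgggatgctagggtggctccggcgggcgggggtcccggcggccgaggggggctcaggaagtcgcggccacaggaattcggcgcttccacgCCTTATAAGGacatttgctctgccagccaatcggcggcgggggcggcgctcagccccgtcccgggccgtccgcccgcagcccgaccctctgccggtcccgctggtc
Vcl: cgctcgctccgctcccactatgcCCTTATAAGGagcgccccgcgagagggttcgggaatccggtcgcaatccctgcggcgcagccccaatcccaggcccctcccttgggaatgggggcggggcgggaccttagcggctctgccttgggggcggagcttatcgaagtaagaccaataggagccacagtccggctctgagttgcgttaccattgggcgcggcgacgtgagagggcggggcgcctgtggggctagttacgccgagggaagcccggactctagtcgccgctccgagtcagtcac
Ankrd1: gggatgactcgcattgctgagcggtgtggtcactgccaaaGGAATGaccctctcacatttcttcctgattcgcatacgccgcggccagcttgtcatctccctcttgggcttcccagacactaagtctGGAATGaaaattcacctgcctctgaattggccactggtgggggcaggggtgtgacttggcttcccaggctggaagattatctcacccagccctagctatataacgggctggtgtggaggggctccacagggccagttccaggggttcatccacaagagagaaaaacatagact
Both strands were searched, and the Cnn2 match overlaps a match to 1 other motif searched. A CArG box was found in 5 of 22 contractile windows (22.7%, in Myl9, Cnn2, Myl6, Vcl and Srf) and in 1.63% of all 32851 windows. Myl6 did not pass the test (-0.01, edgeR adjusted p = 0.972). The box was also in 5 of 23 windows of immediate early factors (21.7%, in Egr2 and Zfp36), a list with 2 members higher and 4 lower. GGAATG was found in 8 of 16 windows of YAP and TAZ targets (50%), in 8 of 22 contractile windows (36.4%) and in 14.7% of all windows. These matches are letters in a window, and binding was not measured.

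**Figure D1:**
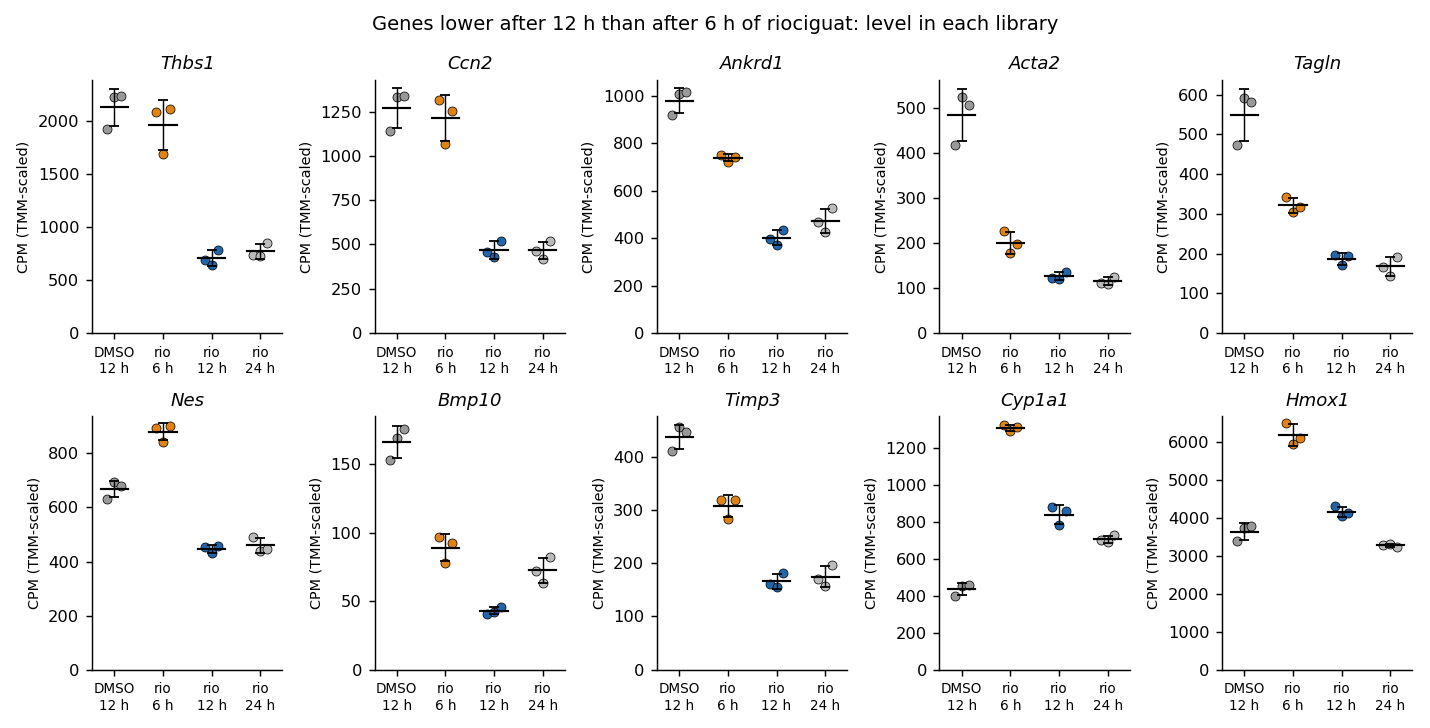
Level of 10 genes in each library (points; CPM scaled by TMM factors, axes from 0) with the mean (line) and SD (bars) of 3 libraries per group. In all 10 panels the 3 riociguat 12 h libraries lie below the 3 riociguat 6 h libraries, and Cyp1a1 is lowest in DMSO while Acta2 is highest there.

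The aryl hydrocarbon receptor is a sensor of planar ligands that induces oxidases. Of the 12 tested genes on its list 4 were lower at 12 h and none was higher. The list holds targets but also Ahr, the receptor itself, and its partner Arnt, neither of which was called. Its median log2 fold change was -0.13, from -0.24 without riociguat 6 h replicate 1 to -0.06 without riociguat 12 h replicate 3. Cyp1a1, the receptor's classical target oxidase, was at 1324, 1294 and 1313 CPM at 6 h and at 880.3, 784 and 857 CPM at 12 h. The groups were well apart (log2 fold change -0.64 ± 0.05, edgeR adjusted p = 1.02e-06), and the means were 439 CPM in DMSO and 707 CPM at 24 h. Cyp1b1, a second oxidase of the family, was at 520.4 ± 33.7 CPM at 6 h, 384 ± 17.4 CPM at 12 h, 315 CPM at 24 h and 235 CPM in DMSO. Tiparp and Ahrr, which feed back on the receptor, had log2 fold changes of -0.50 and -0.67. The order of means was therefore the same for Cyp1a1 and Cyp1b1: 6 h, 12 h, 24 h, DMSO.

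All 26 tested genes of the NRF2 response, which serves against oxidative and electrophilic stress, had a negative log2 fold change, and 13 of them were lower by the test, with none higher (median -0.16). In 17 of the 26 all 3 libraries at 12 h lay below all 3 at 6 h, a separation found in 12.5% of all tested genes. The share called was 50%, against 6.09% of all tested genes. Hmox1, heme oxygenase 1, was at 6505, 5940 and 6110 CPM at 6 h and 4306, 4041 and 4124 CPM at 12 h. The 12 h libraries were all lower (log2 fold change -0.57 ± 0.05, edgeR adjusted p = 9.31e-07), and DMSO and 24 h libraries averaged 3631 and 3274 CPM. Prdx1 (a peroxiredoxin), Txnrd1 (thioredoxin reductase 1) and Gclc (the catalytic subunit of the enzyme that starts glutathione synthesis) fell by 0.33 ± 0.04, 0.32 ± 0.04 and 0.36 ± 0.05. The summed level of the list was 38700 ± 1010 CPM at 6 h and 33970 ± 709 CPM at 12 h, and averaged 29320 CPM in DMSO.

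Windows of a leading member of each response are shown, with GCGTG, the core of the xenobiotic response element, or TGACNNNGC, the core of the antioxidant response element, in capitals on the strand printed. The Cyp1a1 window (chr9:57697363-57697662, plus strand) has its match 54 bases before the start site. That of Prdx1 (chr4:116685349-116685648, plus strand) starts 133 bases before it and reads on the opposite strand.
Cyp1a1: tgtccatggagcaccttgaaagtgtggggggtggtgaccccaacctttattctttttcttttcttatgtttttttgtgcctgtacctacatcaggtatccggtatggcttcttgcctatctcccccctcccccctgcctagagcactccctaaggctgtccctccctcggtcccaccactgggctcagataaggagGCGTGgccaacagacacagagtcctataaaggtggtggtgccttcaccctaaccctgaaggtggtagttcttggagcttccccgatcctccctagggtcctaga
Prdx1: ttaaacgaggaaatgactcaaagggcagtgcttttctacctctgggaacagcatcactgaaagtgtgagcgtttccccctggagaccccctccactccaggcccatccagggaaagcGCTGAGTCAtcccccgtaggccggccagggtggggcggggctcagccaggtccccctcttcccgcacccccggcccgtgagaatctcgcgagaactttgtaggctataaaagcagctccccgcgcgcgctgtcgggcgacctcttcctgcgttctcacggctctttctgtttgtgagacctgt
GCGTG was in 5 of 9 windows of the receptor's list (55.6%, Arnt among them) against 32.4% of all windows. It was also in 60.7% of NRF2 windows and 68.2% of mitosis windows. TGACNNNGC was in 10 of 28 NRF2 windows (35.7%) against 12.4% of all windows.

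All 30 tested genes of DNA replication and S phase had a positive log2 fold change, with a median of 0.34. By the test 14 were higher (46.7%, against 6.09% of all tested genes called) and none was lower. In 26 all 12 h libraries lay above all 6 h libraries, a separation found in 11.5% of all tested genes. All 26 tested genes of mitosis and G2/M were also positive, with 8 higher, none lower and a median of 0.47, and 5 were higher without riociguat 12 h replicate 2. Mki67, the proliferation marker Ki-67, was at 21.8, 27.7 and 25.1 CPM at 6 h and at 40.6, 45.9 and 43.2 CPM at 12 h. The groups did not overlap (log2 fold change 0.79 ± 0.09, edgeR adjusted p = 1.58e-05), and DMSO libraries averaged 45.7 CPM, close to 12 h. Rrm2, a subunit of ribonucleotide reductase, rose from 21.1 ± 1.86 to 36.0 ± 3.70 CPM, and Mcm5, a subunit of the replicative helicase, from 36.2 ± 1.999 to 53.6 ± 1.53 CPM. Uhrf1, which carries DNA methylation through replication, had a log2 fold change of 0.63, Top2a (topoisomerase II alpha) of 0.69 and Ccna2 (cyclin A2) of 0.58. Outside the lists Tk1 (thymidine kinase), Pclaf (a PCNA-binding factor), Pbk (a mitotic kinase) and Kntc1 (a kinetochore protein) were among the 12 largest rises, at 1.25 ± 0.15, 1.11 ± 0.20, 1.09 ± 0.18 and 0.97 ± 0.15. Tk1 was low in absolute terms, with 3.85, 3.81 and 3.89 CPM at 6 h and 8.28, 9.41 and 9.73 CPM at 12 h. Summed over the mitosis list, the level was 197 to 225 CPM at 6 h, 288 to 316 CPM at 12 h, 300.2 to 312 CPM in DMSO and 389 to 470.2 CPM at 24 h. The 6 h group was thus the low one among the 4 groups. Of 24 tested p53 targets and CDK inhibitors 1, Plk2, was lower (-0.47) and none higher, or 4.17% against 6.09% of all tested genes.

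The window of Mki67 (chr7:135716330-135716629, minus strand) is shown for the CHR element, TTTGAA, which occurs in many genes of G2 and mitosis. It holds matches starting 116 and 98 bases before the start site.
Mki67: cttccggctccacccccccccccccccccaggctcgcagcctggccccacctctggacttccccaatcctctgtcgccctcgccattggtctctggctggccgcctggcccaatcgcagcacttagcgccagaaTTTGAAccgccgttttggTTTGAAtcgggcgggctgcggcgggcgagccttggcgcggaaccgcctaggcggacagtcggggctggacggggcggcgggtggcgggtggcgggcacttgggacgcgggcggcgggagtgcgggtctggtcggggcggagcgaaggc
TTTGAA was in 17 of 22 mitosis windows (77.3%), in 2 of 26 S phase windows (7.69%) and in 17.9% of all windows. The E2F core TTTCCCGC was in 4 of 26 S phase windows (15.4%; Mcm3, Mcm7, Cdc6 and Rfc3) and in 1.07% of all windows.

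**Figure D2:**
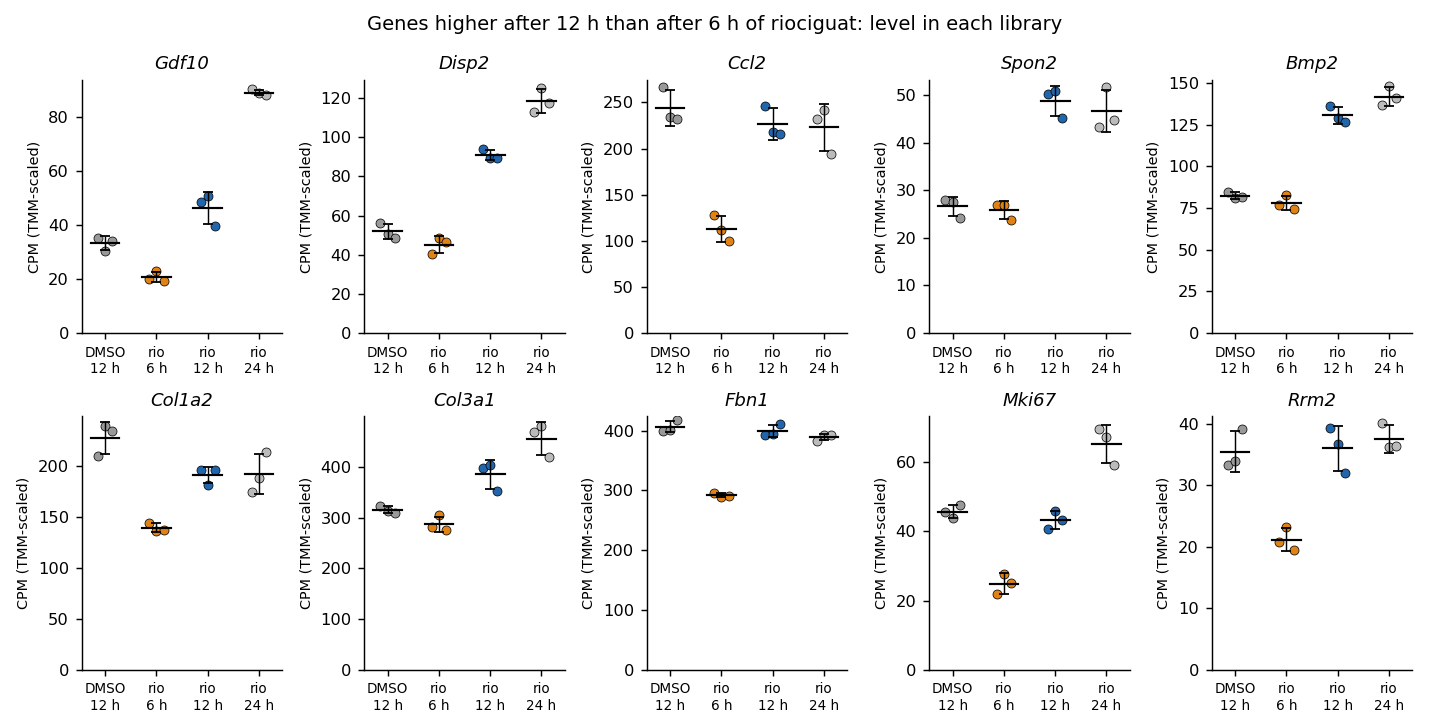
Level of 10 genes in each library (points; CPM scaled by TMM factors, axes from 0), with the mean (line) and SD (bars) of 3 libraries per group. All 10 genes have their 3 riociguat 12 h libraries above the 3 riociguat 6 h libraries, and for Ccl2, Fbn1, Mki67 and Rrm2 the 12 h and DMSO groups overlap.

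Of 22 tested collagen chains (25 listed) 11 were higher and 3 lower, with a median log2 fold change of 0.29. The share called was 63.6%, against 6.09% of all tested genes. Col1a2, a chain of type I collagen, was at 144, 136 and 137 CPM at 6 h and at 195, 181 and 195.5 CPM at 12 h. The 12 h libraries were all higher (0.46 ± 0.07, edgeR adjusted p = 0.000275), and DMSO libraries were higher still, at 227 CPM. Col3a1 (type III) had a log2 fold change of 0.42 ± 0.06, Col14a1 (a fibril-associated chain) of 0.57 ± 0.06, Col18a1 (the source of endostatin) of 0.49 ± 0.05 and Col6a3 of 0.38 ± 0.04. Col1a1, the other chain of type I collagen, changed least of these: 256 ± 21.5 against 307 ± 22.6 CPM, 0.27 ± 0.07, edgeR adjusted p = 0.0326. Its adjusted p was 0.0634 to 0.156 without riociguat 6 h replicate 1 or 2 or riociguat 12 h replicate 1 or 3. The chains that fell were the basement membrane chains Col4a1 (-0.20) and Col4a2 (-0.19) and the fibril-associated Col12a1 (-0.38), and the count of lower chains was 1 without riociguat 6 h replicate 1 or without riociguat 12 h replicate 2.

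Of 30 matrix glycoproteins and proteoglycans 9 were higher and 1 lower (median 0.10). Fbn1, the microfibril protein fibrillin-1, was at 296, 289.5 and 290 CPM at 6 h and 392.5, 394.5 and 410.4 CPM at 12 h. Spread within groups was small beside that gap (0.45 ± 0.04, edgeR adjusted p = 1.02e-06). Spp1 (osteopontin) had 275 ± 19.7 CPM at 6 h and 386 ± 25.9 CPM at 12 h and reached 732 ± 13.6 CPM at 24 h. Bgn (biglycan), Lum (lumican), Fbln2 (fibulin-2) and Thbs2 (thrombospondin-2) were also higher, at 0.35, 0.49, 0.54 and 0.59. The member that fell was Tnc, tenascin-C, from 784 ± 45.7 to 499 ± 40.8 CPM (-0.65 ± 0.06). Thbs1 and Thbs2, of the same family, thus moved in opposite directions. Of 20 genes that hydroxylate or crosslink collagen 3 were higher (Plod2, Loxl4 and Pcolce) and 1, the lysyl oxidase Lox, lower (-0.37 ± 0.08). The count of higher genes was 7 in the 6-library fit with the replicate block and 6 with library totals, and the Lox call was lost without riociguat 12 h replicate 2 (adjusted p = 0.0523, edgeR).

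Proteases and their inhibitors went both ways, with 4 higher and 5 lower among 23 tested (median 0.01). Timp3, the matrix-bound inhibitor of metalloproteases, was at 318, 283 and 319 CPM at 6 h and at 160.2, 156 and 181 CPM at 12 h. No library overlapped, and its log2 fold change was -0.89 ± 0.07 (edgeR adjusted p = 1.02e-06), whereas Timp1, a soluble inhibitor, had 0.36 ± 0.07. Mmp3 (stromelysin-1) fell from 650.4 ± 14.2 to 451 ± 10.4 CPM and was at 649 ± 10.2 CPM at 24 h and 446 CPM in DMSO, so its means were not ordered by exposure time. Mmp13 was lower too (-0.53), while Adamts9, a secreted protease of proteoglycans, and Adam12, a membrane metalloprotease, were higher (0.66 and 0.62). The count of lower members was 3 with library totals, without riociguat 6 h replicate 2 and without each riociguat 12 h replicate.

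Within the TGF-beta system 3 of 23 tested genes were lower, among them Thbs1 and Pmepa1 (a feedback inhibitor, -0.36), and 4 were higher (median 0.04; 8 higher in the 6-library fit with the block). The 4 were Ltbp2 and Ltbp1, latent TGF-beta binding proteins (0.62 and 0.37), the signal transducer Smad3 (0.46) and the coreceptor Tgfbr3 (0.28). Smad3 was at 85.1, 84.2 and 79.8 CPM at 6 h and at 115, 114 and 113 CPM at 12 h, with no overlap. BMP and GDF ligands split: Gdf10, Bmp2, Gdf2 (BMP-9) and Bmp5 were higher and Bmp10, Bmp6 and Inhba (an activin subunit) lower, out of 27 genes tested (median 0.01). Gdf10, a TGF-beta family ligand also called BMP-3b, was at 20.2, 23.0 and 19.1 CPM at 6 h and at 48.6, 51.0 and 39.6 CPM at 12 h. It reached 89.2 ± 1.06 CPM at 24 h and was at 33.3 CPM in DMSO, and its log2 fold change was 1.16 ± 0.09 (edgeR adjusted p = 8.93e-07). Bmp10 and Gdf2, ligands of the endothelial receptor ALK1, moved in opposite directions, Bmp10 from 89.1 ± 9.88 to 43.0 ± 2.58 CPM (-1.05 ± 0.09) and Gdf2 from 35.2 ± 0.52 to 59.3 ± 2.55 CPM (0.76 ± 0.06). Bmp2 was at 77.9 ± 4.24 CPM at 6 h and 131 ± 5.20 CPM at 12 h. Genes of other kinds with large rises included Disp2, a relative of the Hedgehog-releasing protein Dispatched, at 40.3, 48.5 and 46.4 against 93.9, 89.6 and 89.4 CPM, and Spon2, a secreted spondin, at 25.9 ± 1.82 against 48.7 ± 3.13 CPM.

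Of 30 tested chemokines, cytokines and targets of NF-kB (33 listed) 12 were higher at 12 h, 1 was lower and 17 did not pass the test, with a median log2 fold change of 0.24. Ccl2, the monocyte chemoattractant, was at 128, 111 and 99.9 CPM at 6 h and at 247, 217.5 and 216 CPM at 12 h. The groups were apart (1.01 ± 0.09, edgeR adjusted p = 1.74e-06), and DMSO libraries averaged 244 CPM. Ccl7, another monocyte chemoattractant, had 0.90 ± 0.08, Cxcl1, a neutrophil chemoattractant, 0.86 ± 0.12, the alarmin Il33 0.65 ± 0.14, and Nfkbia, the NF-kB inhibitor induced by NF-kB, 0.53 ± 0.06. The adhesion molecules Vcam1 and Icam1 had 0.37 and 0.39. The member that fell was Ptgs2, the inducible cyclooxygenase, from 133, 124 and 143 CPM to 82.4, 81.8 and 100.4 CPM (-0.60 ± 0.08). Without riociguat 6 h replicate 3, 7 members were higher. Il11 was at 33.2 ± 2.48 CPM at 6 h and 37.2 ± 1.41 CPM at 12 h, against 7.19 CPM in DMSO, and did not pass the test between 6 h and 12 h (0.17 ± 0.10, edgeR adjusted p = 0.389).

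Interferon-induced genes differed between the 12 h libraries themselves. Summed over 30 tested genes, the level was 370 CPM, 369 CPM and 347 CPM at 6 h and 389, 385 and 711 CPM at 12 h, the last in replicate 3. Of the 30 genes 2 (6.67%, against 6.09% of all tested genes), among them Ddx58, were higher by the test and none lower. The median log2 fold change was 0.52. Without riociguat 12 h replicate 3 the median was 0.05 and no member was called. No member was called without riociguat 6 h replicate 1, 2 or 3 either, with medians of 0.57, 0.51 and 0.49, and without riociguat 12 h replicate 1 or 2 there were 7 and 9 calls. The 6-library fit with the block called 11 and the fit with no low-count filter 16. Ddx58, the RNA sensor RIG-I, was at 58.5, 62.6 and 90.5 CPM at 12 h and 50.2 to 53.6 CPM at 6 h, and Irf7, a transcription factor of the response, at 8.62, 6.36 and 27.2 CPM at 12 h and 4.56 to 6.70 CPM at 6 h. Gbp6, a guanylate-binding protein among the 12 largest rises (0.99 ± 0.26, edgeR adjusted p = 0.0303), showed the same pattern, with 6.15, 5.12 and 12.1 CPM at 12 h. Its adjusted p was 0.187 without riociguat 12 h replicate 3 and 0.081 to 0.101 without any 1 of the riociguat 6 h replicates.

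**Figure D3:**
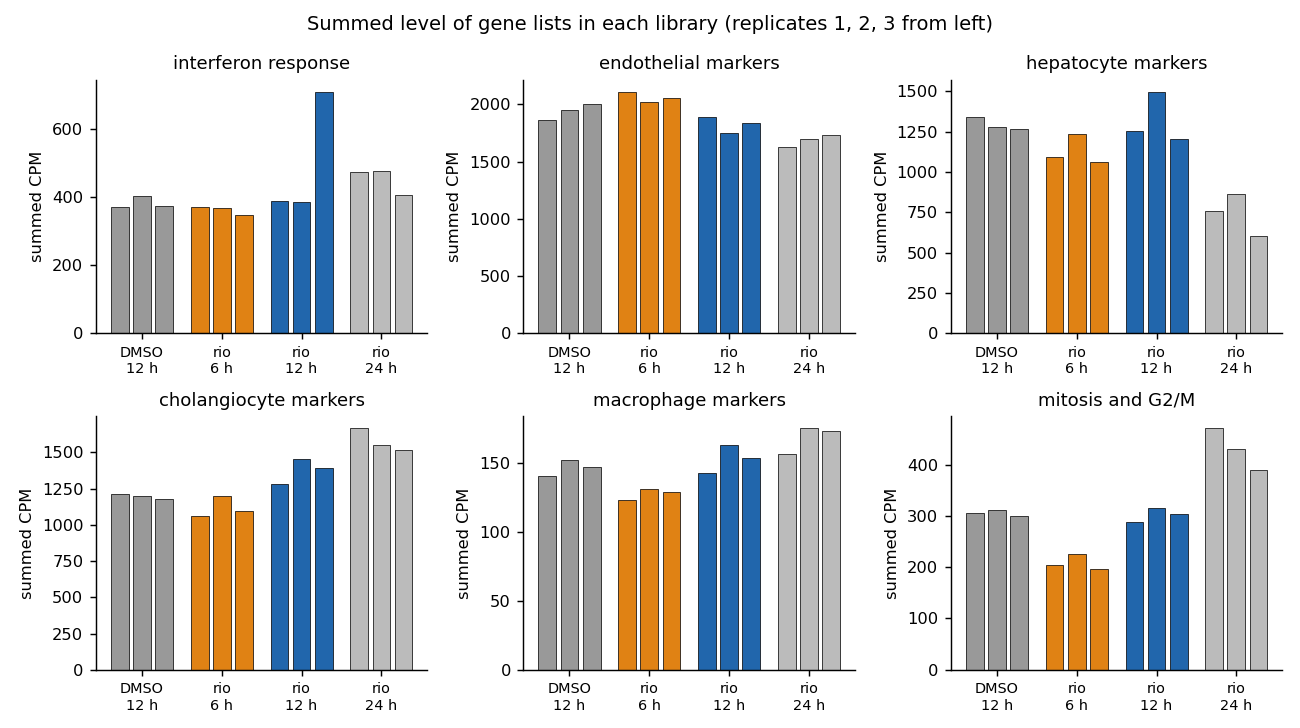
Summed CPM of 6 gene lists in each of the 12 libraries (bars from 0, replicates 1, 2 and 3 from left within each group). The interferon list has 1 tall bar, riociguat 12 h replicate 3 at 711 CPM, the endothelial list is lower in the 12 h than in the 6 h libraries, and the mitosis list is lowest at 6 h.

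The subunits of riociguat's target gave no call. Gucy1a1 and Gucy1b1, the subunits of soluble guanylate cyclase, were at 67.4 ± 2.84 and 72.9 ± 4.55 CPM at 6 h and at 73.0 ± 6.60 and 66.4 ± 1.25 CPM at 12 h. Neither passed the test (0.12 ± 0.08 and -0.13 ± 0.06, edgeR adjusted p = 0.514 and 0.235), nor did Pde5a, the cyclic GMP-specific phosphodiesterase (-0.26 ± 0.13, adjusted p = 0.294, edgeR). Of 20 genes of the pathway 1 was higher and 3 were lower (20% called, against 6.09% of all tested genes, median -0.22). Npr3, the natriuretic peptide clearance receptor, was at 65.2, 59.5 and 64.0 CPM at 6 h and 30.5, 32.3 and 37.8 CPM at 12 h. It was lower in each 12 h library (-0.91 ± 0.08, edgeR adjusted p = 1.74e-06), with 53.1 ± 4.71 CPM at 24 h and 79.0 CPM in DMSO. Pde1a, a calcium-activated phosphodiesterase, rose from 35.3, 40.8 and 40.2 CPM to 63.0, 67.2 and 67.7 CPM (0.76 ± 0.07). Prkg1, protein kinase G1, fell from 22.8 ± 2.14 to 17.7 ± 1.37 CPM (-0.37 ± 0.10). Vasp, a substrate of that kinase, fell by 0.20, with libraries of the groups overlapping (edgeR adjusted p = 0.0497). The Prkg1 call was lost without riociguat 6 h replicate 2 or riociguat 12 h replicate 1 or 2 (edgeR adjusted p = 0.121 to 0.137), and the count of lower genes was 1 without riociguat 12 h replicate 2 and 5 in the 6-library fit with the block. A list of 18 genes held cyclic AMP phosphodiesterases, CREB-family factors and cyclic nucleotide targets. The family member Creb3l1 (-0.43), Nr4a1 (-0.48) and Pde4a (-0.38) were lower and Pde4b higher (0.18). The count of lower genes was 1 without riociguat 6 h replicate 3 or riociguat 12 h replicate 2. Pde4b was not called in any fit that left out 1 library.

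Of the cells' own identity genes, 4 of 14 stellate markers were higher (Hand2, Lum, Col1a1 and Col3a1) and 2 lower (Des and Pdgfrb), and the summed level was 3642 to 3694 CPM at 6 h and 3824 to 4013 CPM at 12 h. The count of lower markers was 1 without riociguat 6 h replicate 1 or 3 or riociguat 12 h replicate 2 or 3. Des, desmin, was at 171 ± 6.98 and 140 ± 4.66 CPM. Pdgfrb, the PDGF receptor, was at 241.5 ± 8.86 and 205 ± 20.8 CPM, and its adjusted p of 0.0261 by edgeR was 0.0688 to 0.17 without riociguat 6 h replicate 1 or 3 or riociguat 12 h replicate 2 or 3. Retinoid genes had 4 higher and 1 lower of 19 tested (median 0.32, from 0.14 without riociguat 6 h replicate 3 to 0.38 without riociguat 12 h replicate 3). Cyp26b1, which degrades retinoic acid, was at 12.7, 17.7 and 12.7 CPM at 6 h and 24.9, 30.9 and 25.0 CPM at 12 h (0.90 ± 0.14), and Dhrs3, which returns retinal to retinol, was at 0.41 ± 0.08. Aldh1a1, a retinal dehydrogenase, was lower (-0.37 ± 0.05), and Adh7, a retinol-oxidising alcohol dehydrogenase outside the list, fell from 57.6 ± 1.49 to 28.9 ± 3.38 CPM. Lrat had 0.42 ± 0.22 and did not pass the test (edgeR adjusted p = 0.321).

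Endothelial markers were lower in 7 of 12 cases and higher in none (58.3% called, against 6.09% of all tested genes, median -0.23). Cdh5, the cadherin of endothelial junctions, was at 433, 389 and 405 CPM at 6 h and 302, 286 and 295.5 CPM at 12 h (-0.47 ± 0.05, edgeR adjusted p = 4.66e-06), Kdr (VEGF receptor 2) had -0.33 ± 0.05 and Ptprb -0.39 ± 0.06. The count was 4 with library totals, and 3 or 4 without riociguat 6 h replicate 1 or 2 or riociguat 12 h replicate 2 or 3. Cholangiocyte markers were higher in 4 of 8 cases, or 50% (Krt19, Epcam, Sox9 and Spp1, the last also a stellate cell product). They were higher in 1 or 2 without riociguat 6 h replicate 1 or riociguat 12 h replicate 2 or 3, and in 7 in the 6-library fit with the block. No hepatocyte marker of 10 was called, against 4 higher in the fit with the block and 4 with no low-count filter. Macrophage markers held 2 of 12 that were higher (16.7%), C1qa and Lyz2, and 0 or 1 was called in each fit that left out 1 of the 6 libraries.

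**Figure D4:**
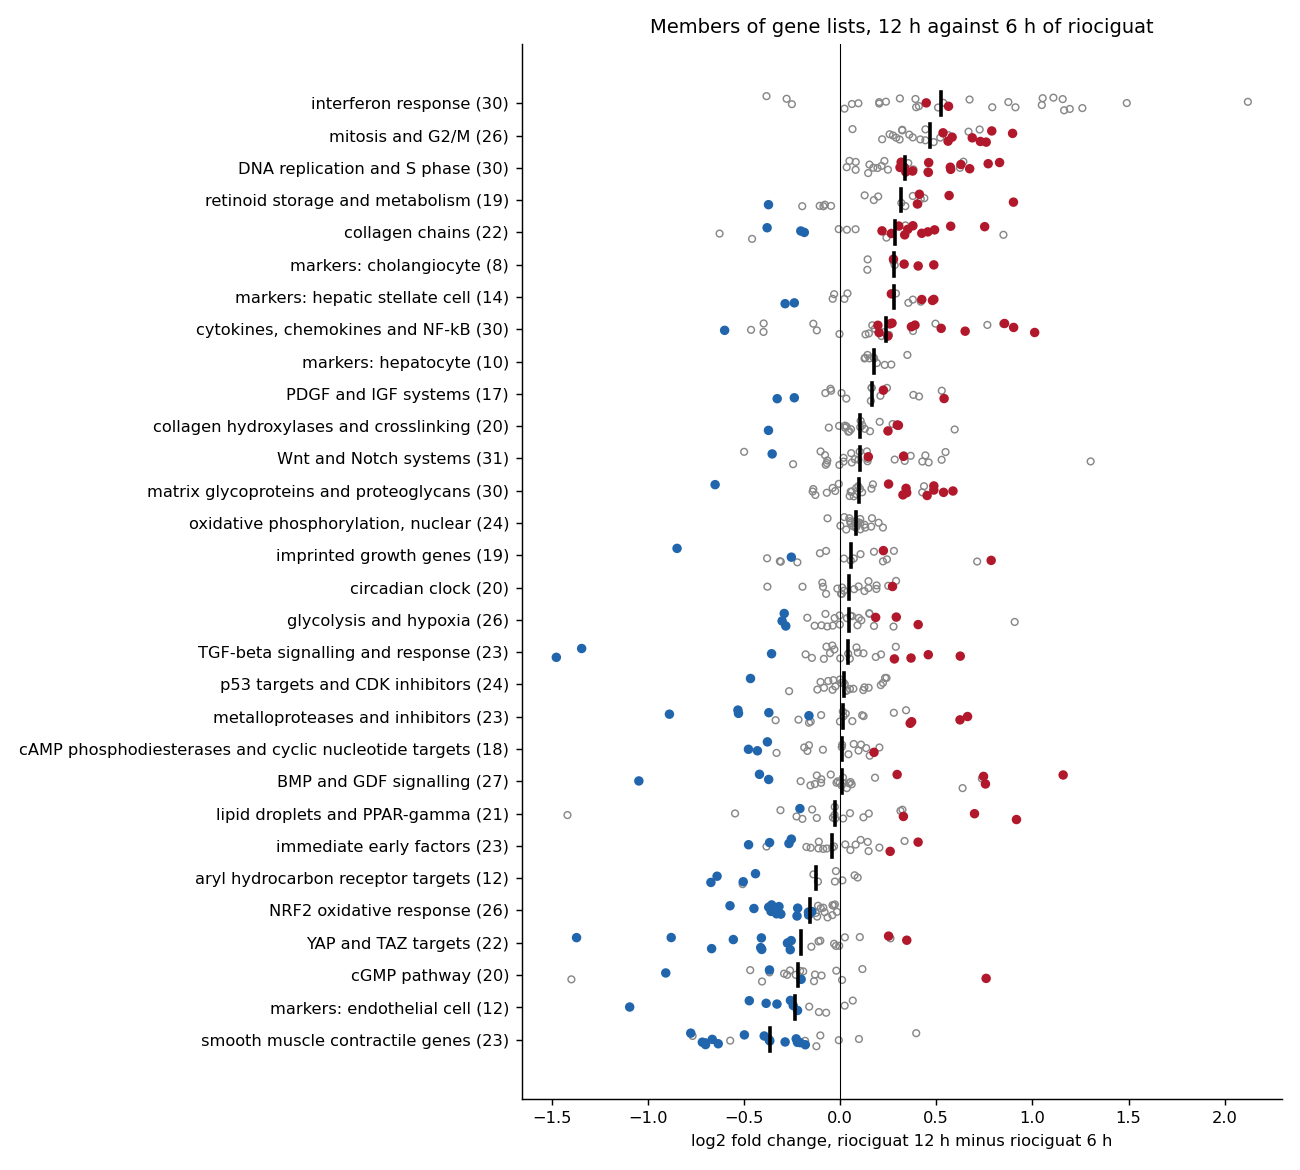
Each point is a tested member of a gene list, placed by its log2 fold change (12 h minus 6 h); filled red and blue points are higher and lower by the test, open points did not pass it, and the black bar is the list's median, with the number tested in brackets. Contractile genes (median -0.37) and YAP and TAZ targets lie to the left, and the S phase, mitosis and interferon lists to the right, the last with nearly all points open.

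Shares called in the remaining lists are read against the 6.09% of all tested genes. Oxidative phosphorylation had 0%, the clock 5%, amino acid and unfolded protein stress 4%, cholesterol genes 8.33% and fatty acid synthesis 6.25%, whereas lipid droplet genes had 19%, glycolysis and hypoxia 23.1% and immediate early factors 26.1%. None of 24 nuclear genes of oxidative phosphorylation was called (2 higher in the 6-library fit with the block). Even so, 23 of the 24 had a positive log2 fold change, with a median of 0.08. Their summed level was 3424 to 3630 CPM at 6 h and 3698 to 3824 CPM at 12 h, without overlap. Taken singly, 3 of the 24 had all 12 h libraries above all 6 h libraries. Among clock genes 1 of 20 was higher (Bhlhe40), and 1 of 25 genes of amino acid and unfolded protein stress was higher (Phgdh). Cholesterol genes had 2 lower of 24, among them the exporter Abca1 (-0.44), and fatty acid synthesis 1 lower of 16, Fasn. Glycolysis and hypoxia genes had 3 in each direction of 26, with the glucose transporter Slc2a1 at -0.30 ± 0.05 and the lactate dehydrogenase Ldha at 0.18 ± 0.04. Immediate early factors had 2 higher and 4 lower of 23, among them Klf4 (-0.48 ± 0.06) and Egr1 (-0.37 ± 0.05). Lipid droplet genes had Cebpd, Cebpb and Angptl4 higher and Pnpla2 lower of 21, and the Cebpb call (0.92 ± 0.21) was lost without riociguat 6 h replicate 3 or riociguat 12 h replicate 1. Among imprinted genes Peg3, a zinc finger protein, was at 47.7, 56.3 and 55.4 CPM at 6 h and 29.0, 31.0 and 28.8 CPM at 12 h (-0.85 ± 0.08), while the noncoding H19 went the other way, from 21.7 ± 5.30 to 37.7 ± 3.77 CPM. Leaving out single libraries moved several of these small counts. Glycolysis and hypoxia had 1 higher gene, and the clock none, without riociguat 6 h replicate 2 or 3 or riociguat 12 h replicate 1 or 2. Without riociguat 12 h replicate 2, 1 cholesterol gene, 1 imprinted gene and no fatty acid gene were lower and no amino acid stress gene was higher, and the last also held without riociguat 6 h replicate 3. The count of lower lipid droplet genes was 0 without any single library other than riociguat 6 h replicate 2.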

How the data were processed

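RNA-seq was deposited as 1 table of estimated counts per gene for all 12 libraries, made by the authors; the values were whole numbers, so rounding changed none. Per the submitters' processing notes FastQC, fastp, Salmon and DESeq2 were used with build GRCm38; their versions and roles are not given in the sources used here. Libraries were grouped by their labels. Genes were kept by edgeR's filterByExpr (10 counts at the median library total, 0.477 CPM, in at least 3 libraries; Shh was just inside at 0.481 CPM and Igf2bp1 just outside at 0.475 CPM), scaled by TMM and tested by edgeR 4.0.16 (R 4.3.3; glmQLFit and glmQLFTest) in 1 fit over all 12 libraries, with Benjamini-Hochberg adjustment over all tested genes and a threshold of 0.05. The biological coefficient of variation was 0.0798. An SE is the absolute log2 fold change divided by the square root of F. Replicates of a group differed by more than sampling noise.

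Same-numbered libraries of the riociguat 6 h and 12 h groups had deviations from their group means that correlated by 0.236, 0.14 and 0.191 over 11074 genes, so the numbers may pair the libraries. The labels do not state such a pairing; it is read from the data. The reported p-values come from the fit without the replicate block. Blocked counts are given for some of the lists where they differ by over 1.5 times. Over the 6 libraries with the block, counts of other lists moved too. Higher were 5 lipid droplet, 5 glycolysis and hypoxia and 4 amino acid stress genes. Lower were 5 cholesterol, 4 imprinted, 3 ERK feedback, 2 p53 and 2 cytokine genes. These are not all the counts that moved. Over all groups the 18 same-number correlations ran from -0.331 to 0.27.

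The 37 gene lists (756 different genes, 739 tested) and the named genes were chosen with earlier results of these data known. Named were the 12 largest called changes in each direction with non-overlapping libraries and at least 5 CPM in the higher group, the 3 called members with the smallest p of each list with at least 3 called, and 20 genes set by name. Members named beyond these were chosen after their values were seen. Alternatives were RLE factors, library totals, other count filters, only the 6 libraries compared, the replicate block, each library left out, and DESeq2 1.42.0. On simulated data made from these libraries (15604 genes) the fit recovered 84% of genes changed 1.5-fold and 98% of those changed 2-fold. False calls were 11, or 5.45% of calls. The simulation gave all genes 1 spread and had no pairing and no outlier library, unlike the real libraries. No change under 1.5-fold was simulated, so recovery of smaller changes, which include most called here, was not measured. Gene positions are from GENCODE vM21 (GRCm38) and promoter windows from RefSeq (GRCm38.p6). Some named genes are not reported here.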

Additional observations from a re-analysis of the deposited data

How the results depend on the processing

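The count of 976 changed genes stayed between 842 and 1325 under RLE factors, library totals, other count filters, the 6 libraries alone, the replicate block over all 12 libraries (842, with 356 higher and 486 lower) and DESeq2 (1159). With no low-count filter 676 genes were higher and 649 lower. Over the 6 libraries alone with the replicate block, a fit chosen after the data were seen, 1802 genes changed, 881 higher and 921 lower, 968 of them among the 976. With 1 library left out the count was 596 to 836, with 243 to 345 higher and 324 to 491 lower, and 58.2% to 75.1% of the 976 were called again. Of 102 named genes 97 were called, 85 of them under every alternative in which they were tested. The other 12 lost the call in at least 1 alternative, Notch2 also under the replicate block (edgeR adjusted p = 0.0828), and no named gene changed sign. Medians near 0 changed sign in some fits that left out 1 library, to -0.03 for TGF-beta genes, -0.01 for BMP and GDF genes and -0.01 for metalloproteases and inhibitors. For the list of cyclic AMP phosphodiesterases, CREB-family factors and targets the median went to -0.10 without riociguat 6 h replicate 3. Medians of ERK feedback, lipid droplet and lymphocyte genes also changed sign in such fits. With at least 5 CPM in 3 libraries the Wnt and Notch median was -0.06. The cause was not tested. Depth was lowest in riociguat 6 h replicate 1, at 12953096 counts.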

Other observations

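Growth factor and patterning systems that the comparison touched lightly are given as values. Of 17 tested PDGF and IGF genes 2 were higher at 12 h (Igf1 and Igf2r) and 2 lower (Igf1r and Pdgfrb), with a median log2 fold change of 0.16. Igf1r, the receptor for IGF-1, was at 115, 112 and 137 CPM at 6 h and at 96.4, 91.3 and 102 CPM at 12 h, without overlap (-0.33 ± 0.07, edgeR adjusted p = 0.00471). Igf2r, the receptor that clears IGF-2, had 0.22 ± 0.04, and Pdgfra, at 616 CPM at 6 h and 595 CPM at 12 h, did not pass the test. Each fit that left out 1 library called 1 higher gene of this list. In 31 tested genes of the Wnt and Notch systems Rspo3, which amplifies Wnt signals, was higher, at 294, 297 and 286.5 CPM at 6 h and 375, 363.5 and 364 CPM at 12 h (0.33 ± 0.05, edgeR adjusted p = 0.000202), and kept its call in every alternative. Notch2 was higher and Wnt5a lower in the fit over all 12 libraries, and both lost the call when most single libraries were left out. The share called in the Wnt and Notch list was 9.68%. Of 16 genes that feed back on ERK signalling 1, the phosphatase Dusp10, was lower (-0.29), or 6.25% against 6.09% of all tested genes. The count was 0 without riociguat 6 h replicate 3 or riociguat 12 h replicate 1 or 2 and 2 without riociguat 6 h replicate 1.

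Several of the largest changes fell outside every list. Map7d2, a microtubule-binding protein, was at 31.6, 28 and 30.5 CPM at 6 h and at 12.3, 11.1 and 10.1 CPM at 12 h (-1.42 ± 0.10, edgeR adjusted p = 1.89e-07), and averaged 13.9 CPM in DMSO. It was thus high in the 6 h group alone among the 4 groups. Nefm, a neurofilament subunit, had the same order of levels, with 12.3 ± 1.199 CPM at 6 h against 5.39 ± 0.39 CPM at 12 h and 5.54 CPM in DMSO, as did Akap6, a kinase anchor, with 7.01 ± 1.05, 2.75 ± 0.17 and 3.41 CPM. Akr1c14, an aldo-keto reductase, was at 15.5 ± 1.07 CPM at 6 h, 7.85 ± 0.56 CPM at 12 h, 3.79 ± 0.48 CPM at 24 h and 6.52 CPM in DMSO. Sox5, a transcription factor, was higher at 12 h, at 22.2, 22.9 and 22.2 CPM against 11.2, 11.7 and 10.2 CPM (1.03 ± 0.13). Stc1, the secreted stanniocalcin-1, had the largest called rise of those named, 1.25 ± 0.23, at levels of 2.46 ± 0.94 CPM and 6.09 ± 1.26 CPM.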
